A study of Rattus norvegicus with 24 samples.

Results

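Acta2, Tgfb1 and Vim are 3 genes whose products mark and drive the myofibroblast, the contractile scar-forming cell of the healing heart. They were taken by Ensembl gene ID alone (Tgfb1, ENSRNOG00000020652; Acta2, ENSRNOG00000058039; Vim, ENSRNOG00000018087) and are 3 of 32883 genes in the table of read counts. RNA was sequenced from the left ventricle of Sprague Dawley rats, an outbred strain, in 4 groups of 6 libraries. The Microneedle patch group had an infarct covered by a patch that grips the tissue with microneedles, the Sutured patch group an infarct with a stitched patch, the MI group an infarct with no patch, and the Sham group was the operated control. Tissue of the infarct region was collected at day 7 per the labels, which give no age, sex or separate animal for a library and do not say which part of a Sham ventricle was used; p-values therefore measure the spread between libraries.

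Tgfb1 encodes transforming growth factor beta 1, a secreted ligand that is stored in the matrix in a latent form and, once released, signals through membrane receptor kinases to SMAD proteins in the nucleus. In the infarcted heart this ligand is known as a driver of the conversion of fibroblasts to myofibroblasts. Acta2 encodes the smooth muscle alpha-actin that forms the stress fibres of myofibroblasts and is also made by the smooth muscle of vessel walls. Vim encodes vimentin, the intermediate filament of mesenchymal cells, which fibroblasts, endothelial cells and leukocytes all make and adult heart muscle cells largely lack. None of these genes is therefore specific to myofibroblasts, and in bulk tissue a change in the number of cells of a type and a change in RNA per cell cannot be told apart.

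The promoters are shown because the genes differ in the elements next to their starts while their levels are compared side by side. Each line gives the 250 bases before the RefSeq transcription start in the assembly GRCr8, in the 5′ to 3′ direction of the gene; the window is chr1:90324062-90324311 on the plus strand for Tgfb1, chr1:241172504-241172753 on the minus strand for Acta2 and chr17:81577011-81577260 on the plus strand for Vim. Capitals mark every match to the motifs searched.
Tgfb1: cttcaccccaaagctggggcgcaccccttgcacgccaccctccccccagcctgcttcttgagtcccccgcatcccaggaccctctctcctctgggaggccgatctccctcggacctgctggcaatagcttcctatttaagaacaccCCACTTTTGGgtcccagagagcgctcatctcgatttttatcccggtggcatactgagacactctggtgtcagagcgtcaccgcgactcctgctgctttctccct
Acta2: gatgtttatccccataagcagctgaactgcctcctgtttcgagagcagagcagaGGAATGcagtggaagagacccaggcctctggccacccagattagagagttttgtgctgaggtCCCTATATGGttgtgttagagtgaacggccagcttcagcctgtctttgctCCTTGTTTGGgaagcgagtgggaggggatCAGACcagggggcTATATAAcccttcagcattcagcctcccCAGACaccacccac
Vim: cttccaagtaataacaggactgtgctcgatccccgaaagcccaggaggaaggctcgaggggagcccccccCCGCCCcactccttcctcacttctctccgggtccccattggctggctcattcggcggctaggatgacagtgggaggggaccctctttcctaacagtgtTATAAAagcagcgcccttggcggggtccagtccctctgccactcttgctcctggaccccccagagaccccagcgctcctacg

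On both strands, the search covered the CArG box (bound by serum response factor) with at most 1 core letter other than A or T, the TATA box as TATAAA or TATATAA, the SMAD element CAGAC, the MCAT element CATTCC, the AP-1 site TGANTCA and the GC box GGGCGG. The Acta2 window held 2 CArG-like matches, CCCTATATGG starting 134 bases and CCTTGTTTGG starting 84 bases before the start, besides a TATA box 42 bases before it, 2 matches of CAGAC and 1 of the MCAT element. The Tgfb1 window held 1 CArG-like match, 104 bases before the start, and no match of the other motifs. The Vim window held a TATA box 82 bases and a GC box on the opposite strand 180 bases before the start. The matches did not overlap each other. Of 33469 rat promoter windows of this length, 8.08% held a CArG-like match, 14.5% a TATA box, 42.9% CAGAC, 12.1% the MCAT element, 6.34% the AP-1 site and 30.5% the GC box, so that a match describes the letters of the window and no more.

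Total counts ran from 12574300 to 14552623 in the 18 libraries with an infarct and from 5443782 to 11757562 in Sham. Whatever made the Sham libraries shallower cannot be told apart from the Sham group. Depth itself was evened in fits with all libraries thinned to 5443782 counts, given below. The lowest count of any of the 3 genes in a library was 653 (Tgfb1, Sham replicate 5), for which counting error alone is 3.91%. Levels are given as CPM, counts set to a common library size, with the sizes scaled by the trimmed mean of M-values (TMM); they serve to compare 1 gene between libraries, not genes with each other. Before the results, some libraries must be named. Sham replicate 5 was the shallowest, with 13635 genes detected against 14079 to 16449 in the other Sham libraries. Sham replicate 4 was the one with 14079 genes, at 10753596 total counts. MI replicate 1 stood at 16.1 on the first principal component (44.9% of the variance), between the other MI libraries (-37.5 to -10.3) and Sham (99.3 to 129). The cell type label could not be checked against other markers, because the tables used here pair no symbol with the other IDs; for the same reason the 11 lists of pathway and cell type genes were not run. All 3 genes passed the filter on low counts, among 14540 genes tested.

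Each of the 3 genes had its highest group mean in the infarcts under a microneedle patch. In the edgeR quasi-likelihood fit of all 24 libraries, a gene was called at an adjusted p below 0.05 over all genes tested. Against Sham, 3 of 3 were called higher with the microneedle patch, where 25.9% of all genes tested were called higher. With the sutured patch 2 of 3 (Acta2 and Tgfb1) were called higher than in Sham, against 24.1% of all genes, and in MI 1 of 3 (Acta2) was, against 21.6%. Relative to MI, 1 of 3 (Tgfb1) was called higher with the microneedle patch, where 7.12% of genes were, and 0 of 3 with the sutured patch, where 2.87% were. With the microneedle patch 0 of 3 were called higher than with the sutured patch, against 0.144% of all genes. None of the 3 was called lower in any comparison. Against Sham, the genes called in either direction numbered 6504 in MI, of which 3135 were higher and the rest lower. With the sutured patch they numbered 6975 (3511 higher), and with the microneedle patch 7494 (3763 higher). Relative to MI they numbered 2112 with the microneedle patch (1035 higher) and 661 with the sutured patch (418 higher). At an unadjusted p below 0.05 from edgeR, 2 of 3 (Acta2 and Tgfb1) were higher with the microneedle than with the sutured patch, against 6.68% of all genes, and 0 of 3 with the sutured patch than in MI, where 1593 of 14540 genes were. DESeq2 called 0 of 3 in both, where it called 1.24% and 4.27% of genes higher. Each comparison against Sham uses the same Sham libraries, and each against MI the same MI libraries, so these counts are not independent of each other. The share of all genes tested whose groups did not overlap was not counted. Statements below that libraries of 2 groups did not overlap therefore describe the 3 genes and do not set them apart from other genes.

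**Figure D1:**
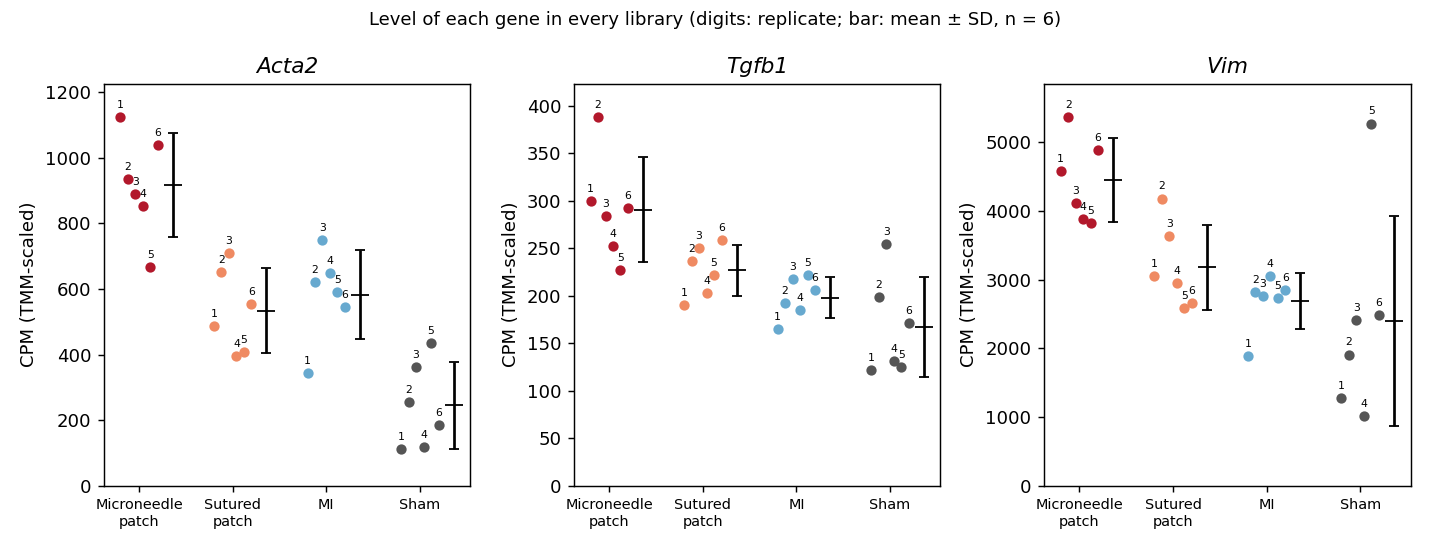
CPM of Acta2, Tgfb1 and Vim in each of the 24 libraries, with the microneedle patch, sutured patch, MI and Sham from left to right; points are libraries with their replicate number, and bars are the mean ± SD (n = 6). Every microneedle patch library lies above every MI library for Tgfb1 and Vim, and Sham replicate 5 stands alone at 5270.4 CPM for Vim.

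Tgfb1, the ligand gene, was higher with the microneedle patch than in MI. With the microneedle patch its level ran from 227 CPM over a median of 288 to 388 CPM, and with the sutured patch from 189.8 over 229 to 259 CPM. In MI it ran from 165 over 199 to 222 CPM, and in Sham from 122 over 151 to 255 CPM. All 6 microneedle patch libraries were thus above all MI libraries, with the nearest libraries at 227 and 222 CPM, and 4 of 6 were above all Sham libraries. None of the MI libraries was above Sham replicate 3 (255 CPM).

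Tgfb1 averaged 291 ± 55.1 CPM with the microneedle patch and 198 ± 21.2 CPM in MI (SD, n = 6 each), a 1.47-fold rise (log2 fold change 0.55, SE 0.17, adjusted p = 0.0285 by edgeR). The call was lost without MI replicate 1 (0.51, adjusted p = 0.0801) or microneedle patch replicate 2 (0.48, adjusted p = 0.072). The microneedle patch value was 1.74-fold that of Sham, which averaged 167 ± 52.5 CPM (SD, n = 6; log2 fold change 0.80, SE 0.17, adjusted p = 0.000278). With the sutured patch Tgfb1 averaged 227 ± 27.1 CPM (SD, n = 6), 1.36-fold above Sham (log2 fold change 0.44, SE 0.17, adjusted p = 0.0316). That call was lost without Sham replicate 1 or 4 or sutured patch replicate 3 or 6 (adjusted p from 0.0527 to 0.0785), without Sham replicates 4 and 5 together (0.30, adjusted p = 0.126), with the 2 groups alone (0.43, adjusted p = 0.1025) and with limma-voom (0.26, adjusted p = 0.0898). Of the sutured patch libraries, 1 of 6 lay above all Sham libraries. MI and Sham did not differ beyond the spread between libraries (log2 fold change 0.24, 95% interval -0.098 to 0.59, adjusted p = 0.24 by edgeR). Leaving out Sham replicate 3, the highest Sham library for Tgfb1, gave 0.40 (adjusted p = 0.0348 by edgeR). In that fit 6220 genes were called in either direction. In order of level the groups stood as microneedle patch, sutured patch, MI and Sham, and no pair of neighbours in that order passed the test.

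Acta2, the actin gene of myofibroblasts and vascular smooth muscle, was higher than in Sham in all 3 groups with an infarct. Its level ran from 667 CPM over a median of 914 to 1125 CPM with the microneedle patch and from 396 over 521 to 711 CPM with the sutured patch. In MI it ran from 345 over 605 to 749 CPM, and in Sham from 112 over 222 to 435 CPM. The microneedle patch and Sham libraries did not overlap. In MI 5 of 6 libraries lay above all of Sham, the exception being MI replicate 1, and with the sutured patch 4 of 6 did, with replicates 4 and 5 below Sham replicate 5.

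Acta2 averaged 919 ± 158 CPM with the microneedle patch, 535 ± 129 with the sutured patch, 583 ± 135 in MI and 245 ± 132 in Sham (SD, n = 6 each). It rose 3.75-fold over Sham with the microneedle patch (log2 fold change 1.91, SE 0.28, adjusted p = 3.38e-06 by edgeR), 2.18-fold with the sutured patch (log2 fold change 1.12, SE 0.27, adjusted p = 0.00147) and 2.38-fold in MI (log2 fold change 1.25, SE 0.27, adjusted p = 0.000661). All 3 calls held in each fit with 1 library left out. Between the microneedle patch and MI the log2 fold change was 0.66 (95% interval 0.098 to 1.21, adjusted p = 0.0998 by edgeR), with 5 of 6 microneedle patch libraries above all of MI. Between the microneedle and the sutured patch it was 0.78 (95% interval 0.22 to 1.34, adjusted p = 0.189), also with 5 of 6 libraries above. The sutured patch and MI differed by -0.13 (95% interval -0.68 to 0.43, adjusted p = 0.827), an interval from 0.624 to 1.35 times the MI level. The order was microneedle patch, MI, sutured patch and Sham, in which the difference between the sutured patch and Sham, at the low end, passed the test and the others between neighbours did not. The protein made from Acta2 is nearly identical to those of the other muscle actin genes, one of which heart muscle makes in bulk. How many Acta2 reads also fit another gene was not measured. How reads that fit several genes were counted is not given in the sources used here, so the Acta2 counts are uncertain to that extent.

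**Figure D2:**
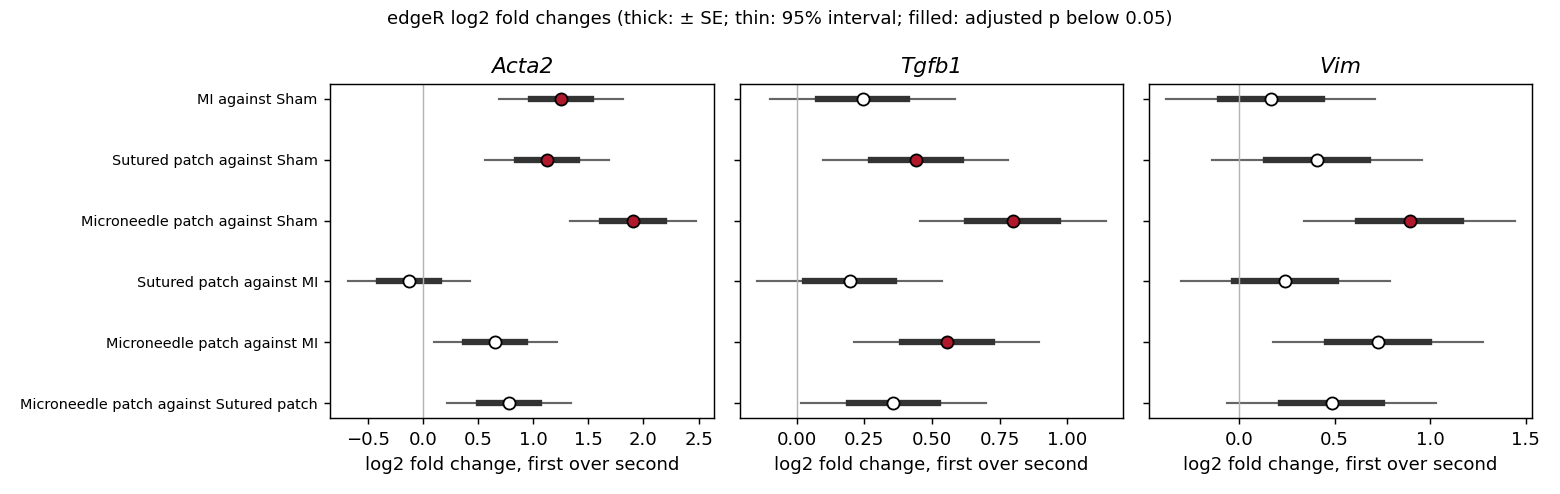
Log2 fold change of Acta2, Tgfb1 and Vim in the 6 comparisons from edgeR, first-named group over second, with thick bars for ± SE and thin bars for the 95% interval; filled points have an adjusted p below 0.05. Acta2 is filled in all 3 comparisons with Sham, and Tgfb1 alone is filled in the comparison of the microneedle patch with MI.

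Vim, the vimentin gene, had its highest mean with the microneedle patch, and its values against Sham depended on which Sham libraries were kept. It ran from 3826 CPM over a median of 4348 to 5368 CPM with the microneedle patch and from 2580.4 over 2997 to 4179 CPM with the sutured patch. In MI it ran from 1894 over 2792 to 3057 CPM, and in Sham from 1010.25 over 2158 to 5270.4 CPM. The highest Sham library was 5.22 times the lowest, against 1.40 times with the microneedle patch, 1.62 times with the sutured patch and 1.61 times in MI. Sham replicate 5, the library with the fewest counts and genes, had 27611 Vim reads, 0.507% of its total, while the other Sham libraries had 0.0947% to 0.252%.

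Vim averaged 4442 ± 612 CPM with the microneedle patch, 3176 ± 618 with the sutured patch, 2687 ± 405 in MI and 2394 ± 1527 in Sham (SD, n = 6 each). With the microneedle patch it was called higher than in Sham, with a fold change of 1.86 (log2 fold change 0.89, SE 0.27, adjusted p = 0.00704 by edgeR), a call that was lost with the 2 groups alone (0.87, adjusted p = 0.0549). Its values with the sutured patch (log2 fold change 0.41, 95% interval -0.14 to 0.96, adjusted p = 0.215) and in MI (log2 fold change 0.17, 95% interval -0.38 to 0.71, adjusted p = 0.637) did not pass the test by edgeR. Without Sham replicate 5 the Sham mean was 1819 ± 659 CPM (SD, n = 5), and the log2 fold changes were 1.30 for the microneedle patch (adjusted p = 8.46e-06), 0.82 for the sutured patch (adjusted p = 0.00135, where 27.1% of genes were called higher) and 0.56 for MI (adjusted p = 0.0231, where 23.3% were) in edgeR fits. Above the highest of these 5 Sham libraries (2484 CPM) stood 6 of 6 microneedle patch, 6 of 6 sutured patch and 5 of 6 MI libraries. Sham replicate 5 was the highest Sham library for Vim, so leaving it out had to raise Vim against Sham. These values and counts are therefore no separate support for a rise. Without Sham replicate 4, the lowest for Vim, the values were instead 0.75, 0.27 and 0.0082 (adjusted p = 0.0119, 0.368 and 0.98 by edgeR) in the same order of groups. Without Sham replicates 4 and 5 together, the MI value was 0.44 (adjusted p = 0.0534) and did not pass the test. The order of the means was microneedle patch, sutured patch, MI and Sham, and no pair of neighbours in it passed the test with all 24 libraries. With all libraries thinned to the depth of Sham replicate 5, Vim differed from Sham by a log2 fold change of 0.88 with the microneedle patch, 0.40 with the sutured patch and 0.16 in MI.

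**Figure D3:**
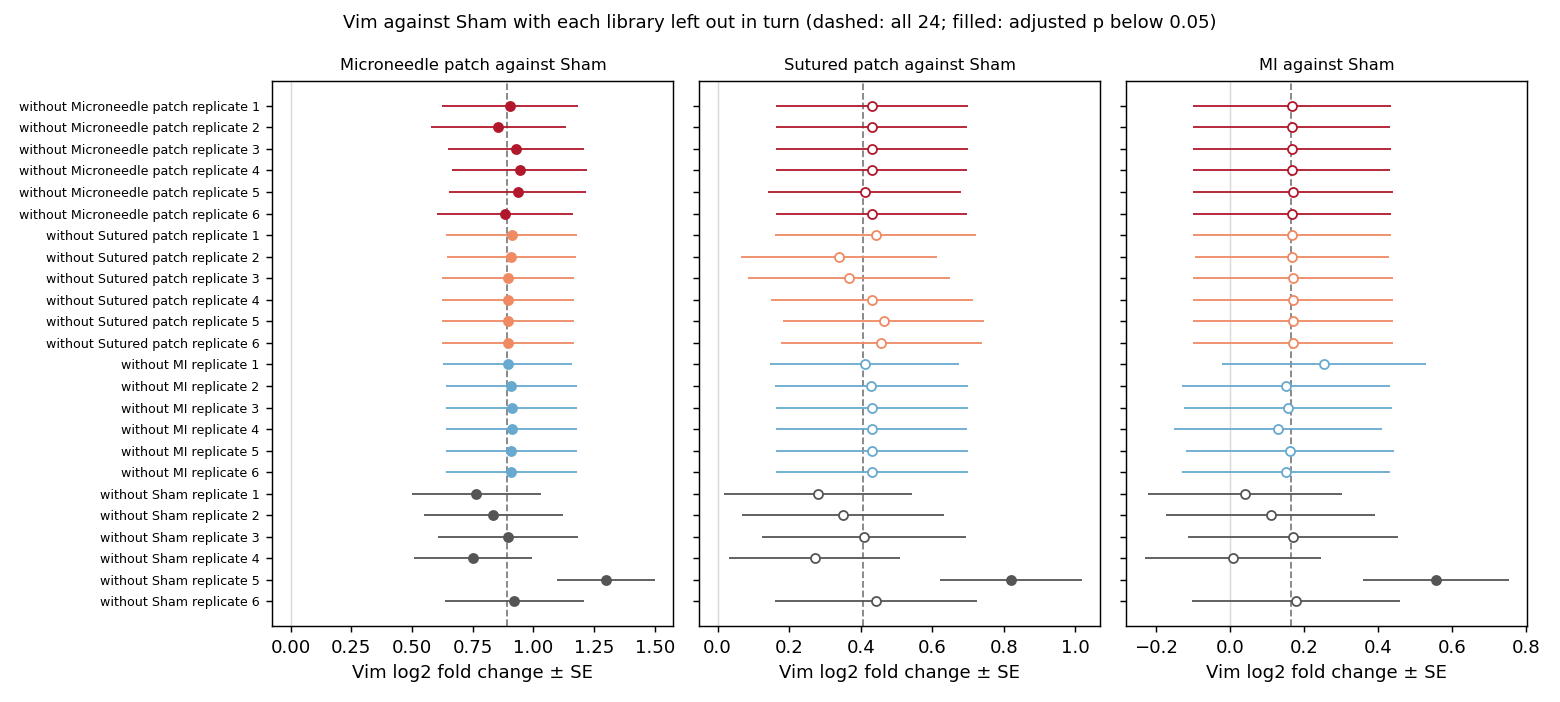
Vim log2 fold change ± SE against Sham for the microneedle patch, the sutured patch and MI, with each of the 24 libraries left out in turn; the dashed line is the value with all 24, and filled points have an adjusted p below 0.05. Leaving out Sham replicate 5 moves the value to 1.30, 0.82 and 0.56, and leaving out any other library leaves the sutured patch and MI points unfilled.

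Between the microneedle patch and MI, Vim differed by a log2 fold change of 0.73 (1.65-fold; 95% interval 0.18 to 1.28), higher in 6 of 6 microneedle patch libraries than in any MI library, with an adjusted p of 0.0674 from edgeR, above the threshold. The spread behind this p is shared by all 4 groups. The biological coefficient of variation fitted for Vim was 32.3% over all 24 libraries, 23.4% without Sham replicate 5 and 16.6% in the 12 libraries of the microneedle patch and MI alone. The log2 fold change hardly moved, at 0.74 without Sham replicate 5 and 0.72 with the 2 groups alone, whereas the adjusted p fell to 0.00802 and 0.00149 in these edgeR fits. For Acta2 in this comparison the log2 fold change was 0.67 (adjusted p = 0.0452) without Sham replicate 5 and 0.65 (adjusted p = 0.0113) with the 2 groups alone. In both of these fits 3 of 3 genes were called higher than in MI, where 13.7% and 17.9% of all genes were. Without MI replicate 1, by contrast, 0 of 3 were called, with log2 fold changes of 0.54 for Acta2, 0.51 for Tgfb1 and 0.64 for Vim (adjusted p = 0.22, 0.0801 and 0.154 by edgeR), where 2.99% of genes were called higher. Without microneedle patch replicate 2, 0 of 3 were called as well, with 0.67, 0.48 and 0.69 (adjusted p = 0.1415, 0.072 and 0.123), where 3.90% of genes were. For the sutured patch against MI, Vim had a log2 fold change of 0.24 (95% interval -0.31 to 0.79, adjusted p = 0.637) and Tgfb1 of 0.20 (95% interval -0.15 to 0.54, adjusted p = 0.53).

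The microneedle and the sutured patch differ in how the patch is held, and anything else that differs between these groups cannot be told apart from it. The log2 fold changes were 0.36 for Tgfb1 (95% interval 0.017 to 0.70, adjusted p = 0.333 by edgeR), 0.78 for Acta2 and 0.48 for Vim (95% interval -0.064 to 1.03, adjusted p = 0.438). Of the 6 microneedle patch libraries, 4 for Tgfb1, 5 for Acta2 and 3 for Vim lay above all sutured patch libraries, and replicate 5 was the lowest of its group for each gene. Of the 9 other settings run on these values, limma-voom with quality weights called Acta2 (0.92, adjusted p = 0.0164) and Vim (0.54, adjusted p = 0.0458) higher with the microneedle patch, where it called 3.43% of all genes higher, and the other 8 called none of the 3.

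Beside all genes tested, the 3 genes lay on the upper side of each distribution except for Acta2 between the sutured patch and MI. For the microneedle patch against MI the median log2 fold change was 0.66 over the 3 genes and 0.021 over all genes, and 89.9% of genes had a lower value than Acta2, 86.3% than Tgfb1 and 91.5% than Vim. For the microneedle against the sutured patch the medians were 0.48 and -0.0097, and the shares of genes with a lower value were 96.9% for Acta2, 84.8% for Tgfb1 and 90.7% for Vim. For MI against Sham the medians were 0.24 and -0.042, with Acta2 above 87.1%, Tgfb1 above 63.5% and Vim above 60.1% of all genes. For the sutured patch against MI they were 0.20 and -0.0016, with Acta2 above 38.5% of genes.

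**Figure D4:**
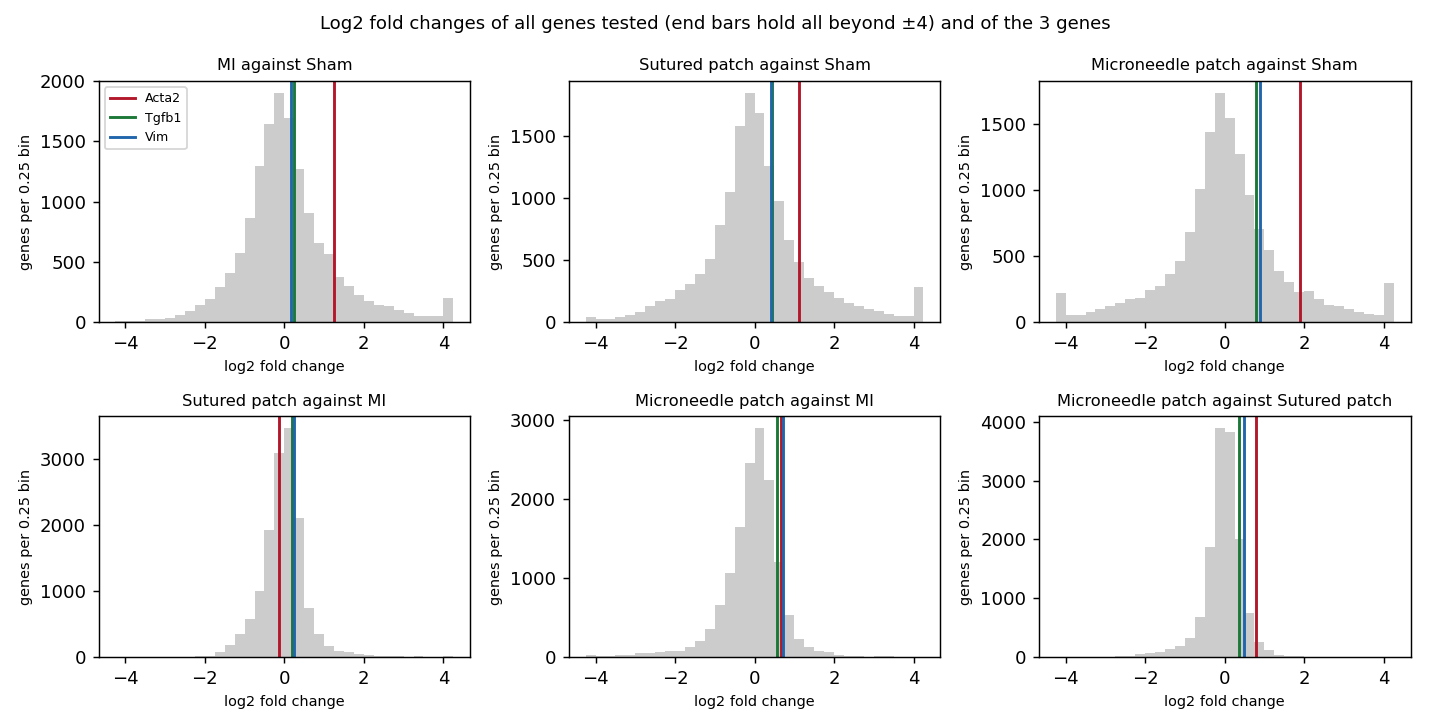
Number of genes per 0.25 log2 units of fold change among the 14540 tested, in each of the 6 comparisons, with coloured lines at Acta2 (red), Tgfb1 (green) and Vim (blue); the end bars hold all genes beyond 4 log2 units. Acta2 stands to the right of the others in the comparisons with Sham, and the 3 lines run close together for the microneedle patch against MI; Tgfb1 and Vim nearly coincide for the sutured patch.

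The ratio of reads of a pair of these genes within a library does not depend on how libraries are scaled; set between groups, it describes how the genes stood to each other. Per 100 Vim reads there were 17.4 to 24.6 Acta2 reads with the microneedle patch, 13.4 to 20.9 with the sutured patch, 18.2 to 27.1 in MI and 7.52 to 15.1 in Sham. The microneedle patch and MI ranges were both above every Sham library, including replicate 5, and overlapped each other (mean log2 ratio -2.28 ± 0.20 and -2.23 ± 0.20), whereas the sutured patch (-2.58 ± 0.23) and Sham (-3.26 ± 0.41; SD, n = 6 each) overlapped. Per 100 Tgfb1 reads there were 241 to 375 Acta2 reads with the microneedle patch, 183 to 284 with the sutured patch, 209 to 349 in MI and 89.97 to 142 in Sham, apart from 349 in Sham replicate 5. Per 100 Vim reads there were 5.94 to 7.24 Tgfb1 reads with the microneedle patch, 5.66 to 9.74 with the sutured patch, 6.07 to 8.73 in MI and 6.90 to 13.03 in Sham, where replicate 5 had 2.365. The high Vim and Acta2 CPM of Sham replicate 5 were thus not matched by Tgfb1, which at 125 CPM was the second lowest of Sham. No test was run on ratios between these genes.

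**Figure D5:**
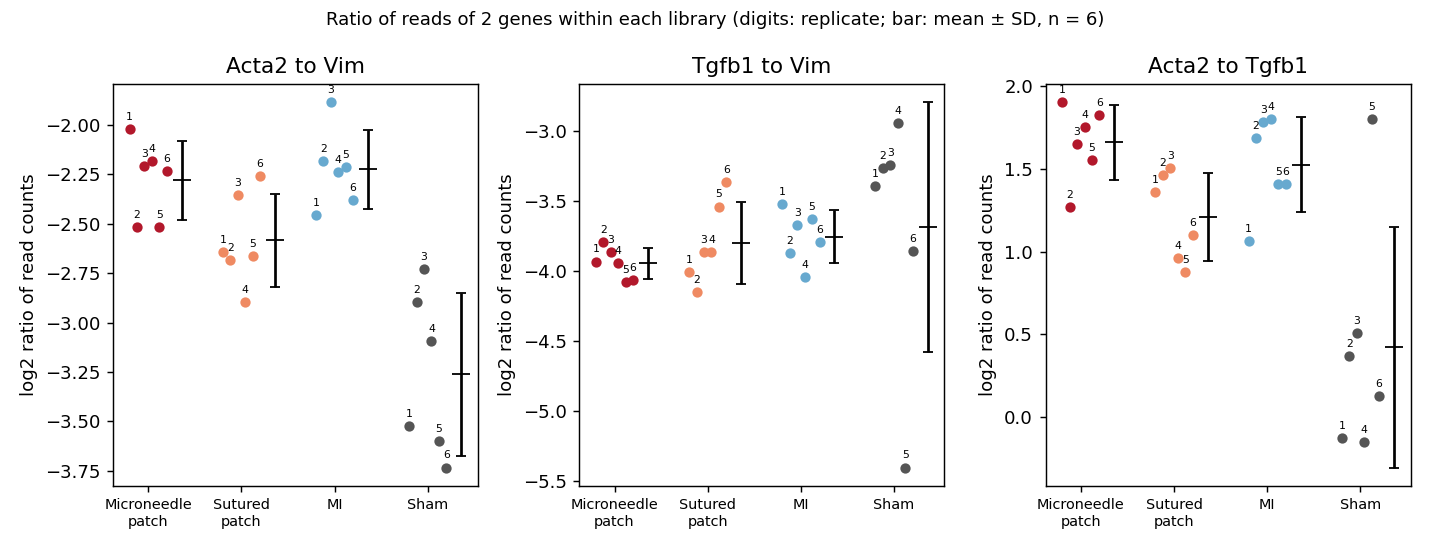
Log2 ratio of read counts of Acta2 to Vim, Tgfb1 to Vim and Acta2 to Tgfb1 in each library, with the microneedle patch, sutured patch, MI and Sham from left to right; points are libraries with their replicate number, and bars are the mean ± SD (n = 6). Acta2 to Vim lies lower in every Sham library than in any MI or microneedle patch library, and Sham replicate 5 stands apart in the other panels.

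Within groups, some libraries were low in several of the genes. MI replicate 1 was the lowest of MI for all 3 genes, microneedle patch replicate 5 the lowest of its group for all 3, and Sham replicates 1 and 4 were the lowest pair for Acta2 and Vim. Pearson's r of log2 CPM was above 0 in 12 of 12 relations (3 pairs of genes in 4 groups), from 0.12 to 0.92. The closest was that of Tgfb1 and Vim with the microneedle patch (r = 0.92, exact permutation p = 0.00417, adjusted p = 0.05 over 12 relations; Spearman's rho = 0.94, exact p = 0.0167, adjusted p = 0.20; two-sided, n = 6), with r = 0.83 without the 2 libraries farthest from the median of Tgfb1. Acta2 and Vim in Sham had r = 0.88 (exact permutation p = 0.0194, adjusted p = 0.117; rho = 0.77, exact p = 0.103, adjusted p = 0.308), and 0.78 without the 2 farthest libraries. No relation had an adjusted p below 0.05, and the 12 relations share genes and libraries. How many of all gene pairs had r above 0 was not counted. Spearman's rho of Tgfb1 with Vim was -0.086 in MI and 0.029 with the sutured patch. In MI the relations of Tgfb1 with Vim and with Acta2 had r = 0.64 and 0.74 with all 6 libraries and -0.80 and -0.66 without the 2 farthest libraries, so that they rest on those libraries.

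The gene whose log2 CPM followed Acta2 most closely over the 24 libraries was ENSRNOG00000017628 (Pearson's r = 0.98, and 0.96 after the group means were removed). It averaged 916 ± 126 CPM with the microneedle patch, 425 ± 117 with the sutured patch, 578 ± 153 in MI and 208 ± 102 in Sham (SD, n = 6 each), the same order of groups as Acta2. For Tgfb1 the closest was ENSRNOG00000013014 (r = 0.96, and 0.91 within groups), with 281 ± 97.4, 163 ± 54.8, 124.8 ± 31.7 and 89.3 ± 52.3 CPM in the microneedle patch, sutured patch, MI and Sham groups (SD, n = 6 each). For Vim it was ENSRNOG00000010105 (r = 0.95, and 0.93 within groups), with 566 ± 190.3, 401 ± 67.2, 295 ± 49.99 and 312 ± 238 CPM in these groups. An r of at least 0.9 was reached by 43 genes for Acta2, 43 for Tgfb1 and 21 for Vim. Among the 14539 other genes tested, Vim ranked 148 in likeness to Acta2 and Tgfb1 ranked 643, while Tgfb1 ranked 1176 in likeness to Vim. These r describe libraries that share their groups and depth, and carry no test.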

How the data were processed

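The values are raw read counts per Ensembl gene ID, deposited by the authors as 1 table with a column per library; per the submitters' processing notes, HISAT2 and featureCounts were used with the build rn6. Their versions, the annotation, the use of strand and the treatment of multi-mapping reads were not given in the sources used here. Columns were matched to samples by the code in each title, and 0 columns stayed unmatched. With edgeR 4.0.16 (R 4.3.3), filterByExpr (minimum count 10) left 14540 of 32883 genes, holding 99.6% to 99.9% of each library's counts. Counts were scaled by TMM and fitted with 4 group means over 24 libraries (20 residual degrees of freedom), a robust quasi-likelihood F test and Benjamini-Hochberg adjustment over all genes of a comparison. Standard errors were taken as the size of the log2 fold change over the root of F. No 2 libraries of a group agreed within sampling noise (lowest chi-square per degree of freedom 15.3).

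The 3 genes, the lists and the tests were chosen with earlier results of these data known. The rule for named genes was the 3 genes by ID and, for each, the ID with the highest Pearson correlation of log2 CPM (prior count 2). Symbols of the 3 genes match RefSeq by name (3 of 3); that table, of GRCr8, holds 0 Ensembl IDs, and in it 0 genes overlap any of the 3. Exact correlation tests ran over 720 pairings. Alternatives used DESeq2 1.42.0, limma 3.58.1, other scalings, no filter, the 2 groups compared alone, a replicate block, thinned counts and left-out libraries.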

Additional observations from a re-analysis of the deposited data

Results flagged for a closer look

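Of 24 sets of 6 values examined for a library apart from the rest (the level of each of 3 genes and each of 3 ratios in each of 4 groups), 4 had a gap between an extreme library and its nearest neighbour that took up more of the group's range than Dixon's 95% critical value for 6 values allows; chance flags about 1 in 20 sets. Vim in MI replicate 1 stood at 1894 CPM, below the other MI libraries. Vim in Sham replicate 5 stood at 5270.4 CPM, above the other Sham libraries. Levels were examined as CPM and ratios as log2 values, and a flag on a level can depend on that scale. On log2 CPM, Vim stood at 12.36 in Sham replicate 5, 11.28 in replicate 6 (the next) and 9.98 in replicate 4 (the lowest). There the gap between replicates 5 and 6 was smaller than that between replicates 6 and 4. Its share of the range was below the critical value, so the Vim flag of Sham replicate 5 holds on CPM only. The other levels were not examined on the log2 scale. The log2 ratio of Tgfb1 to Vim reads in Sham replicate 5 was -5.40, below the other Sham libraries, and its log2 ratio of Acta2 to Tgfb1 reads was 1.80, above them. The flags of Sham replicate 5 share a library and genes, so they are not separate findings. The causes were not tested.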

How the results depend on the processing

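For the 3 genes in 6 comparisons, 146 of 162 values under 9 alternatives and 420 of 432 values with 1 library left out kept their direction and their side of the threshold of the edgeR test, and 0 of either kind changed direction; the cause of the changes below was not tested. Log2 fold changes no longer past the threshold were those of Tgfb1 for the sutured patch against Sham with limma-voom (0.26), with the 2 groups alone (0.43) and without Sham replicates 4 and 5 (0.30), and of Vim for the microneedle patch against Sham with the 2 groups alone (0.87, adjusted p = 0.0549). Values newly past it with limma-voom were 0.44 for Vim in MI against Sham, 0.54 for Vim in the sutured patch against Sham, 0.63 for Acta2 and 0.64 for Vim in the microneedle patch against MI, and 0.92 for Acta2 and 0.54 for Vim in the microneedle against the sutured patch. Without Sham replicates 4 and 5 they were 0.67 for Vim in the sutured patch against Sham, and 0.64 for Acta2 and 0.71 for Vim in the microneedle patch against MI. With the 2 groups alone they were 0.65 for Acta2 and 0.72 for Vim in the microneedle patch against MI, and DESeq2 gave 0.72 for Vim there. Of all genes tested against Sham, limma-voom called 8497 of 14540 in either direction in MI and 8243 with the sutured patch. Without Sham replicates 4 and 5, 7784 of 14824 genes were called for the sutured patch against Sham. With 1 library left out, the values ran from 0.17 to 0.40 for Tgfb1 and from 0.0082 to 0.56 for Vim in MI against Sham, from 0.36 to 0.60 for Tgfb1 and from 0.27 to 0.82 for Vim in the sutured patch against Sham, and from 0.54 to 0.76 for Acta2, 0.48 to 0.61 for Tgfb1 and 0.64 to 0.78 for Vim in the microneedle patch against MI; for Vim there, the call was gained without Sham replicate 4 (adjusted p = 0.029) or 5.

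The number of genes called changed by over 1.5 times in the comparisons without Sham. It was 661 for the sutured patch against MI, but 1143 with DESeq2, 3148 with limma-voom, 2141 with the 2 groups alone, 1715 without Sham replicates 4 and 5, and 308 to 1408 with 1 library left out. It was 2112 for the microneedle patch against MI, but 5097 with limma-voom, 4593 with the 2 groups alone, 3804 without Sham replicates 4 and 5, and 1036 to 3482 with 1 library left out. It was 46 for the microneedle against the sutured patch, but 431 with DESeq2, 802 with limma-voom, 28 with no filter, 499 without Sham replicates 4 and 5, and 0 to 302 with 1 library left out. With the replicate number as a block it was 159 there, and the block changed no call of the 3 genes. The labels tie a replicate number to no animal, litter or day. Residuals of same-numbered libraries correlated above 0.1 in 19 of 36 pairs (median 0.10, range -0.14 to 0.44), not in every pair. A library correlated best with its own number in 24 of 72 cases (24 libraries, each against 3 other groups). That is more often than the 1 in 6 that chance would give with 6 libraries per group, and the excess was not tested. Whether the numbers pair the libraries is not settled, and the fit kept here, without the block, ignores any such pairing. With all libraries thinned to 5443782 counts, the 3 genes kept their calls in all 6 comparisons.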
